A study of Mus musculus with 18 samples.

Results

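The collagen genes were described by type across mammary tumors and normal mammary glands of mice. Members were chosen by name alone, as the genes whose symbol is Col, a type number, the letter a and a chain number. The rule found 44 of 55450 genes, and all 44 were sorted by the structure their chains build: 11 fibrillar genes, 9 network genes, 9 FACIT genes (fibril-associated collagens with interrupted triple helices), 7 beaded filament genes, 4 transmembrane genes, 2 multiplexin genes, 1 anchoring fibril gene (Col7a1) and 1 unclassified gene (Col26a1). A group of 7 genes whose products belong to cartilage (Col2a1, Col9a1, Col9a2, Col9a3, Col10a1, Col11a1 and Col11a2) was also followed across these classes. Of the 44 genes, 43 had enough counts to be tested. Col19a1, a FACIT gene, had not, with levels from 0 to 0.339 CPM (counts scaled to a common library size) over the 18 samples.

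RNA was sequenced from 18 female mice on a C57Bl/6 J background, 1 library per mouse. B1/P/Rbf tumors (n = 5) came from Brca1fl/fl/Trp53fl/fl/TgK18GT121Tg/+ mice, B1/P tumors (n = 5) from Brca1fl/fl/Trp53fl/fl mice, and P/Rbf tumors (n = 5) from Trp53fl/fl/TgK18GT121Tg/+ mice, while the 3 normal glands were from wild type mice. All tumors were started in adult females by an adenovirus that carries Cre recombinase, injected through the nipple into the ducts, so all 15 tumors share the loss of Trp53 and the exposure to the virus. The transgene encodes T121, an N-terminal piece of the SV40 large T antigen that inactivates the Rb protein family (pRb, p107 and p130), and it is driven by the keratin 18 promoter, which is active in luminal epithelium and not in fibroblasts. In their engineered alleles, B1/P/Rbf and B1/P tumors therefore differ by T121, B1/P/Rbf and P/Rbf tumors by Brca1, and P/Rbf and B1/P tumors by both. The paper describes B1/P tumors as basal-like and both other models as luminal, and B1/P mice survived longest after induction. It also reports squamous or mesenchymal differentiation in some B1/P tumors, and focal mesenchymal differentiation in 1 P/Rbf mouse. These traits cannot be told apart from the alleles here. The ages at collection and any injection of the wild type glands were not given in the sources used here.

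Collagens are the main structural proteins of the extracellular matrix, built from 3 chains that wind into a triple helix with glycine in the first place of every set of 3 residues. Fibrillar chains form the ropes of the stroma, network chains form sheets such as the basement membrane under epithelium and around vessels, and FACIT chains sit on the surface of fibrils. Fibroblasts are the usual source of types I, III and V in the mammary gland, epithelial and endothelial cells contribute to type IV, and types II, IX, X and XI are typical of cartilage. The libraries were made from whole tissue, so fewer cells of a type and less RNA per cell cannot be told apart.

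The classes differ in their genes as well as in their products, and 1 exon of 54 bases from each of 6 genes is shown to make the shared unit visible. Each line is the coding strand of a single internal coding exon of the GENCODE M21 model on the mouse build GRCm38, with in capitals the 6 glycine codons that open its 9-base units (a glycine codon elsewhere in a unit stays in lower case). The genes are fibrillar (Col1a1 exon 8 at chr11:94939904-94939957, plus strand; Col3a1 exon 6 at chr1:45325360-45325413, plus strand; Col2a1 exon 6 at chr15:97998545-97998598, minus strand; Col11a1 exon 15 at chr3:114108281-114108334, plus strand), FACIT (Col9a3 exon 6 at chr2:180601582-180601635, plus strand) and network (Col4a1 exon 7 at chr8:11245211-11245264, minus strand).
Col1a1: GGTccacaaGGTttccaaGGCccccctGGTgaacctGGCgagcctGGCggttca
Col3a1: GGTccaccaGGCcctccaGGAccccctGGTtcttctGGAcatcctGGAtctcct
Col2a1: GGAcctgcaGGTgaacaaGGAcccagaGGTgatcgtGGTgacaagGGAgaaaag
Col11a1: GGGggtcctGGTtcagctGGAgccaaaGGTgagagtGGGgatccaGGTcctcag
Col9a3: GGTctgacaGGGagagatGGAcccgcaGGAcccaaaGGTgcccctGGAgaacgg
Col4a1: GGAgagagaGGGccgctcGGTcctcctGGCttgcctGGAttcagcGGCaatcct

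Exons of exactly 54 bases made up 48.6% of the 627 internal coding exons of fibrillar genes, 26.3% of the 414 of FACIT genes and 4.23% of the 284 of network genes. All 284 network exons were in type IV genes, as Col8a1, Col8a2 and Col10a1 had 0 internal coding exons. These shares pool the exons of a class. Among the other 1815 genes with at least 20 internal coding exons the mean of the per-gene shares was 0.415%. The longest run of in-frame 9-base units that open with a glycine codon was 216 to 344 units in the 11 fibrillar genes, above the 32 to 113 of the 9 FACIT genes and the 39 to 66 of the 9 network genes, which overlapped. Col9a1, Col9a2 and Col9a3, which encode the chains of 1 heterotrimer, each had a longest run of 113 units. So did Col22a1, a FACIT gene of another type.

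Total counts per library ranged from 27661173 to 37794889. Brca1 read 21.1 to 45.0 CPM in B1/P/Rbf, 8.13 to 28.0 in B1/P and 44.9 to 116 in P/Rbf tumors against 4.61 to 5.99 in the glands, and Trp53 read 6.75 to 24.3 CPM in all tumors against 54.4 to 71.8 in the glands. These are sums over the whole gene, which do not isolate the deleted exons. By RT-qPCR, the supplementary material describes the loss of Brca1 as partial for the B1/P/Rbf tumor with the highest Brca1 level here. Summed fibroblast markers (10 genes) were 494 to 1310 CPM in B1/P, 113 to 599 in B1/P/Rbf and 111 to 615 in P/Rbf tumors. Those of luminal epithelium (6 genes) were 685 to 3227, 2994 to 6868 and 6317 to 12880 CPM. In the glands the fibroblast markers summed to 479 to 711 CPM. The labelled gland was present by its markers, with 2188 to 2752 CPM of luminal epithelial genes, but the glands also held 22830 to 45520 CPM of skeletal muscle genes (6 genes) and 12950 to 16880 CPM of adipocyte genes (6 genes), whereas no tumor exceeded 593 and 75.3 CPM. The labels name no batch and the methods describe a single sequencing pool. An uncertain split into 2 library sets, inferred earlier from fold changes published for these samples, was used as a check, with B1/P/Rbf and B1/P tumors 1 to 3 in the first and the other B1/P tumors, P/Rbf tumors and glands in the second.

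Collagen transcripts took a larger share of the B1/P libraries than of any other. The 44 genes held 1.14%, 2.06%, 1.66%, 1.10% and 1.03% of all counts in B1/P tumors 1 to 5. The same share was 0.272% to 0.900% in B1/P/Rbf tumors, 0.236% to 0.816% in P/Rbf tumors and 0.262% to 0.356% in glands. The B1/P tumors thus lay above all 13 other samples. Per kilobase of transcript, fibrillar genes gave the largest part of the summed collagen level in 17 of the 18 samples, and the exception was B1/P tumor 1, where FACIT genes gave 35.3% and fibrillar genes 26.8%.

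**Figure D1:**
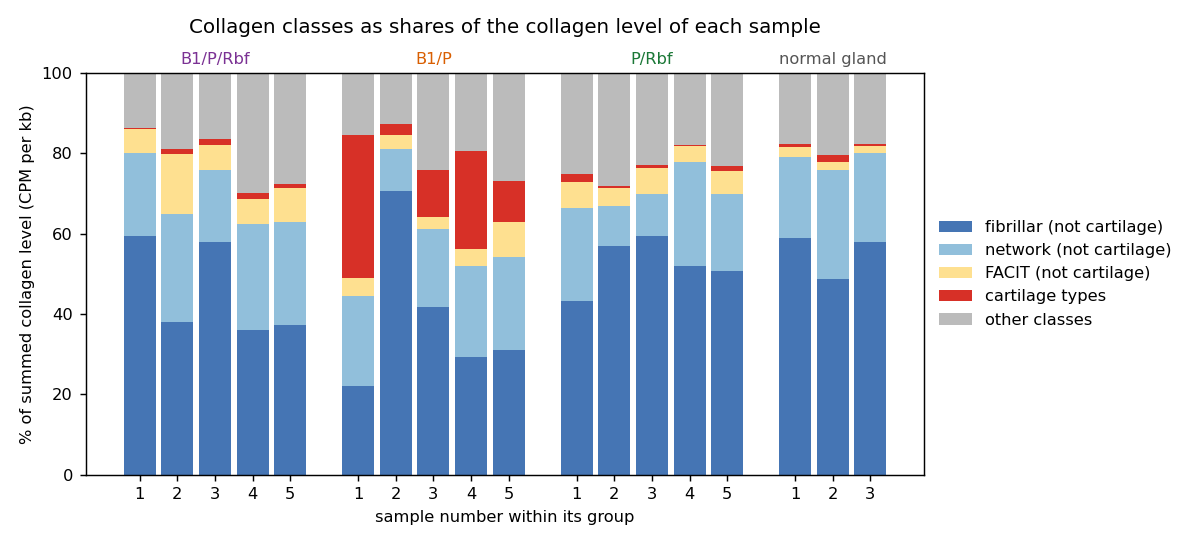
Percent of the summed collagen level, in CPM per kilobase, held by each class in each of the 18 samples, with the 7 cartilage genes taken out of their classes and shown apart. The cartilage part was 2.74% to 35.6% in B1/P tumors and at most 2.07% in every other sample.

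With the cartilage genes set apart, their part of the summed per-kilobase level was 35.6%, 2.74%, 11.8%, 24.6% and 10.3% in B1/P tumors 1 to 5. It was 0.482% to 1.51% in B1/P/Rbf tumors, 0.451% to 2.07% in P/Rbf tumors and 0.577% to 1.60% in glands. B1/P tumor 2, the lowest of its group, was also the B1/P tumor with the largest fibrillar part, 70.7%, while the other B1/P tumors had 22.2% to 41.8%.

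The first comparison, B1/P/Rbf against B1/P, asks what differs with T121 on a Brca1 and Trp53 deleted background. Of 43 collagen genes tested, 18 fell and 2 rose by edgeR's quasi-likelihood test (adjusted p of 0.05 or less). Over all 19186 genes tested the calls were 9.29% lower and 7.36% higher. In 13 collagen genes every B1/P/Rbf tumor lay below every B1/P tumor, which held for 5.48% of all genes, and in 1 every B1/P/Rbf tumor lay above, which held for 5.0%. By class, 4 of 11 fibrillar genes fell, with a median log2 fold change of -1.49, beside 4 of 10 fibroblast markers (median -1.45). Of 9 network genes, 2 fell and 2 rose (median -0.62, and -1.16 to -0.45 with 1 sample left out). Of 8 FACIT genes tested, 3 fell (median -1.87), and these were the 3 type IX genes. Of 7 cartilage genes, 5 fell (median -5.88). The median over all genes tested was -0.06.

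The second comparison, P/Rbf against B1/P, shares its B1/P tumors with the first, so the 2 are not independent. Here 22 of 43 collagen genes fell, beside 10.8% of all genes tested. None rose by edgeR at the adjusted threshold, where 8.43% of all genes rose, while 1 was higher at an unadjusted p under 0.05 (Col7a1), and DESeq2 and limma-voom called 0 higher. In 16 genes every P/Rbf tumor lay below every B1/P tumor, which held for 5.11% of all genes. Lower calls numbered 4 of 11 fibrillar genes (median log2 fold change -1.06), 3 of 9 network genes (-1.71), 6 of 8 FACIT genes (-2.89) and 5 of 7 cartilage genes (-6.72), against a median over all genes of -0.05. Of 10 fibroblast markers, 7 fell (median -2.28). The part of fibroblasts in either comparison was not tested.

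**Figure D2:**
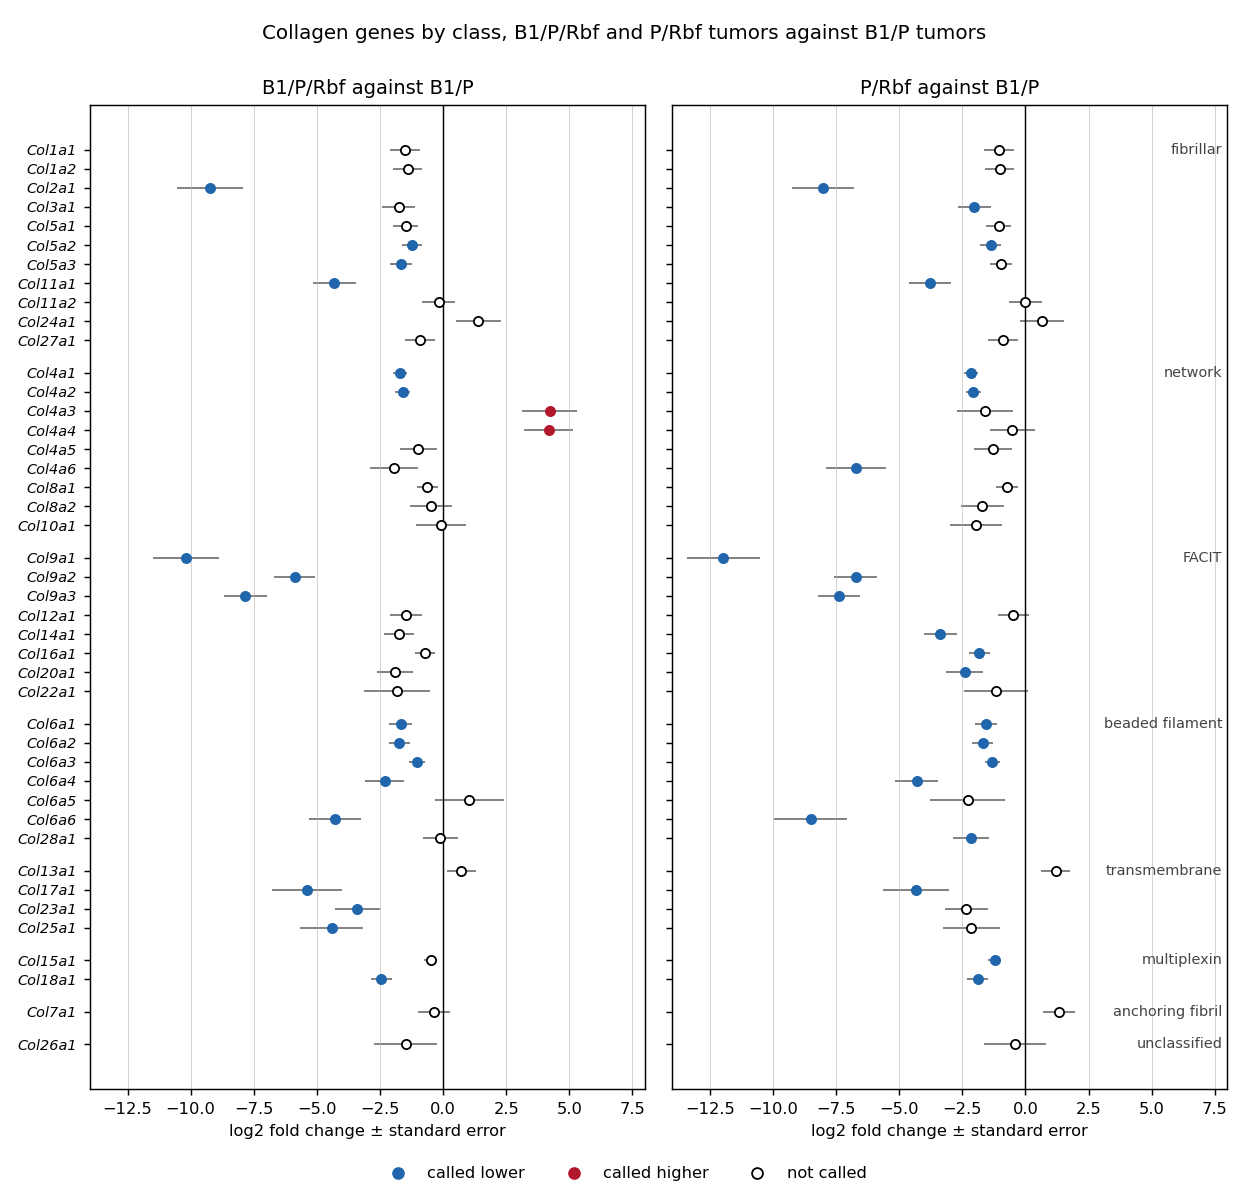
Log2 fold change of each of the 43 tested collagen genes in B1/P/Rbf and in P/Rbf tumors, each against B1/P tumors, ordered by class, with bars of 1 SE. Blue points were called lower, red higher and white points were not called, and Col9a1, Col2a1 and Col9a3 lie farthest to the left in both panels apart from Col6a6 in the P/Rbf panel, whose fitted value rests on 0 counts in P/Rbf tumors.

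The cartilage genes had the lowest median change of the classes named above in both comparisons. Col2a1 encodes the chain of the main cartilage fibril. It read 386, 101, 16.8, 24.8 and 2.71 CPM in B1/P tumors 1 to 5. In B1/P/Rbf tumors it read 0.170, 0.0809, 0.0827, 0.127 and 0.422 CPM, and in P/Rbf tumors 0.460, 0.883, 0.531, 0.0263 and 0.136 CPM. Every B1/P tumor was above every other tumor, although tumor 5 was far below tumor 1. The level was 602-fold lower in B1/P/Rbf tumors (log2 fold change -9.23 ± 1.32 SE, edgeR adjusted p = 0.000476) and 259-fold lower in P/Rbf tumors (-8.02 ± 1.24, edgeR adjusted p = 0.000811). The size rested in part on B1/P tumor 1, without which the log2 fold changes were -7.67 and -6.46, and limma-voom gave -7.71 and -6.46. With the term for library sets the Col2a1 change was -9.90 in B1/P/Rbf and -5.07 in P/Rbf tumors, and all of these values were called lower.

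Type IX collagen coats the type II fibril and is a trimer of the products of Col9a1, Col9a2 and Col9a3. Col9a1 read 62.7, 134, 62.2, 943 and 21.8 CPM in B1/P tumors. It read at most 0.812 CPM in B1/P/Rbf tumors and at most 0.126 CPM in P/Rbf tumors, with 1 tumor at 0 in each of these groups. The highest Col9a1 level was in tumor 4 and the highest Col2a1 level in tumor 1, so the B1/P tumors did not rank alike for the 2 genes. The change was -10.18 ± 1.30 in B1/P/Rbf (edgeR adjusted p = 0.000233) and -11.96 ± 1.43 in P/Rbf tumors (edgeR adjusted p = 0.000159). Without B1/P tumor 4 the Col9a1 changes were -8.36 and -10.16, and without B1/P/Rbf tumor 5 the first was -11.73. Limma-voom gave -10.33 for P/Rbf tumors, and the set term -8.67 and -12.94, and all were called lower.

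Col9a2 read 58.6, 55.8, 7.04, 68.8 and 39.3 CPM in B1/P tumors, 0.567, 1.13, 0.579, 0.254 and 1.36 CPM in B1/P/Rbf tumors and 0.0288, 1.20, 0.127, 0.421 and 0.409 CPM in P/Rbf tumors. Col9a3 read 1866, 38.5, 903, 431 and 434 CPM in B1/P tumors, 2.74 to 3.90 in B1/P/Rbf tumors and 1.37 to 7.22 in P/Rbf tumors. Neither gene overlapped between B1/P and the other tumors, and the lowest B1/P value belonged to tumor 3 for Col9a2 and to tumor 2 for Col9a3. Col9a3 was 228-fold lower in B1/P/Rbf (-7.84 ± 0.86, edgeR adjusted p = 7.61e-05) and 166-fold lower in P/Rbf tumors (-7.38 ± 0.84, edgeR adjusted p = 0.000113). For Col9a2 the changes were -5.88 ± 0.81 (edgeR adjusted p = 0.000387) and -6.72 ± 0.85 (edgeR adjusted p = 0.000199). Without B1/P tumor 1 the Col9a3 changes were -7.14 and -6.68, and without P/Rbf tumor 2 the second Col9a2 change was -7.53.

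Col11a1, a chain of the minor fibril that nucleates type II fibrils, read 144, 25.3, 51.7, 341 and 144 CPM in B1/P tumors. In B1/P/Rbf tumors it read 13.3, 2.70, 15.4, 1.22 and 2.89 CPM, and in P/Rbf tumors 3.14, 22.6, 11.3, 11.7 and 2.25 CPM. All B1/P tumors were higher than the others, with P/Rbf tumor 2 just below B1/P tumor 2. The changes were -4.31 ± 0.86 in B1/P/Rbf (edgeR adjusted p = 0.00321) and -3.79 ± 0.84 in P/Rbf tumors (edgeR adjusted p = 0.00587), or -3.68 and -3.16 without B1/P tumor 4.

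The remaining cartilage genes did not follow. Col11a2, whose product joins the type XI trimer, read 21.7, 19.8, 7.62, 15.5 and 3.18 CPM in B1/P tumors, 6.10 to 20.2 in B1/P/Rbf tumors and 1.64 to 24.4 in P/Rbf tumors. Col10a1, the collagen of hypertrophic cartilage and a network former, read 16.9, 1.33, 0.302, 13.7 and 3.85 CPM in B1/P tumors, 9.02, 4.16, 11.4, 9.33 and 0.487 CPM in B1/P/Rbf tumors and 0.184 to 3.42 CPM in P/Rbf tumors. The groups overlapped for both, and neither was called between any pair of tumor groups. In the glands Col10a1 had 0 counts in all 3 samples. Set against a floor of 3 counts per sample, its level was at least 68.2-fold higher for B1/P, at least 65.0-fold higher for B1/P/Rbf and at least 17.6-fold higher for P/Rbf tumors.

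Chondrocyte markers were read beside these genes. Their summed level, over 8 listed genes of which 6 were tested, was 185, 17.8, 27.5, 232 and 115 CPM in B1/P tumors 1 to 5, at most 7.43 CPM in the other tumors and 6.61 to 12.4 CPM in glands. Of the 6 tested, 3 fell in B1/P/Rbf and 4 in P/Rbf tumors against B1/P, beside 9.29% and 10.8% of all genes tested. Matn1, a matrix protein of cartilage, had at most 3 counts in every sample. Snorc, another of the 8, read 119.5, 0.474, 12.2, 111.8 and 113.1 CPM in B1/P tumors 1 to 5. In glands it read 5.24 to 11.45 CPM. Snorc was thus most of the summed level in B1/P tumors 1 and 5 and in the glands. Acan, also listed, read 15.2, 15.8, 4.12, 81.6 and 0.946 CPM in B1/P tumors 1 to 5. Basal and myoepithelial markers (5 genes) summed to 1426, 337, 2158, 878 and 2047 CPM in B1/P tumors, 48.3 to 333 in B1/P/Rbf and 72.8 to 1444 in P/Rbf tumors. The part of either in the cartilage genes' result was not tested.

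**Figure D3:**
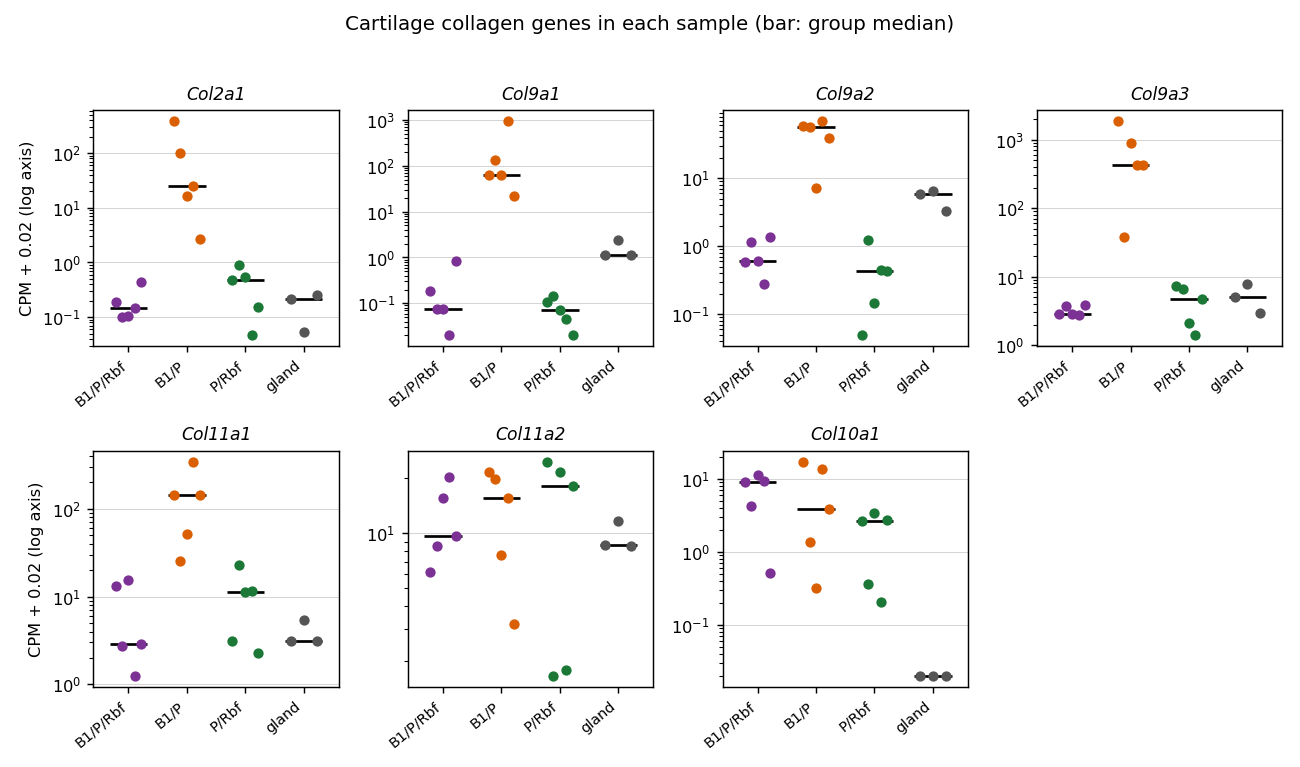
Level of the 7 cartilage collagen genes in each sample, in CPM plus 0.02 on log axes, with the bar at the group median. For Col2a1, Col9a1, Col9a2, Col9a3 and Col11a1 all 5 B1/P tumors lie above all 10 other tumors, while for Col10a1 and Col11a2 the tumor groups overlap.

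Among the other fibrillar genes, the major stromal chains had a wide spread within each group. Col1a1, a chain of type I collagen, read 649, 3608, 1728, 846 and 740 CPM in B1/P tumors. It read 1305, 234, 644, 272 and 231 CPM in B1/P/Rbf tumors and 322, 1390, 1005, 492 and 430 CPM in P/Rbf tumors. B1/P/Rbf tumor 1 exceeded 3 B1/P tumors while the other 4 were below all of them. The change was -1.50 ± 0.59 in B1/P/Rbf tumors (edgeR adjusted p = 0.0917), and its partner Col1a2 had -1.40 ± 0.58 (edgeR adjusted p = 0.107), so neither was called by edgeR, while DESeq2 called Col1a1 lower (adjusted p = 0.0444).

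Col3a1, the chain of the thinner type III fibril, read 909, 5394, 2193, 965 and 904 CPM in B1/P tumors. It read 1622, 259, 631, 295 and 261 CPM in B1/P/Rbf tumors and 197, 1068, 682, 328 and 279 CPM in P/Rbf tumors. B1/P/Rbf tumor 1 was again inside the B1/P range, as was P/Rbf tumor 2. The change was -1.76 ± 0.65 in B1/P/Rbf (edgeR adjusted p = 0.0728) and -2.02 ± 0.66 in P/Rbf tumors (edgeR adjusted p = 0.0398), or -1.28 in the latter without B1/P tumor 2. The second call was lost without any 1 of B1/P tumors 2 and 3 or P/Rbf tumors 1, 3, 4 and 5, where the adjusted p reached 0.135 in edgeR.

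The fibrillar calls in B1/P/Rbf tumors changed with single libraries and with the tool. Without B1/P/Rbf tumor 1, Col1a1 (-2.13, edgeR adjusted p = 0.0217), Col1a2 (-2.01, 0.0271), Col3a1 (-2.52, 0.0153) and Col5a1 (-2.00, 0.0126) were called lower, and so were the FACIT genes Col12a1 (-2.17, 0.0265) and Col14a1 (-2.67, 0.00462) and the network gene Col8a1. With all samples, Col3a1 was called lower by DESeq2, limma-voom and with the set term (adjusted p down to 0.0266). Col5a1 was called lower by both tools, without TMM, with the stricter filter and with the set term (down to 0.0186), and by edgeR without B1/P tumor 1 or 5. Without B1/P tumor 2, the highest for Col1a1 and Col3a1, their changes were -0.88 (edgeR adjusted p = 0.280) and -1.02 (edgeR adjusted p = 0.246). Fibroblast markers summed to 599 CPM in B1/P/Rbf tumor 1 and to 113 to 196 CPM in the other 4, and endothelial markers to 450 against 179 to 227 CPM. The part of these cells in the difference was not tested.

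The minor fibrillar chains of type V, which set fibril diameter, were called for 2 of 3 genes in B1/P/Rbf tumors. Col5a3 read 69.5, 213, 170, 82.3 and 97.8 CPM in B1/P and 53.3, 25.0, 53.4, 34.3 and 33.6 CPM in B1/P/Rbf tumors, without overlap (-1.66 ± 0.44, edgeR adjusted p = 0.0156). Col5a2 read 316, 819, 464, 280 and 501 CPM in B1/P, 390, 103, 245, 132 and 137 CPM in B1/P/Rbf and 98.9 to 288 CPM in P/Rbf tumors. Its groups overlapped in both comparisons. It fell by 1.24 ± 0.40 on the log2 scale in B1/P/Rbf (edgeR adjusted p = 0.0443) and by 1.38 ± 0.41 in P/Rbf tumors (edgeR adjusted p = 0.0255). The first call was lost without any 1 of 7 tumors (edgeR adjusted p up to 0.107) and the second without any 1 of B1/P tumor 2 and P/Rbf tumors 1, 4 and 5 (up to 0.0642). Col5a1 had -1.49 ± 0.50 in B1/P/Rbf tumors (edgeR adjusted p = 0.0503).

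The remaining fibrillar members Col24a1 and Col27a1 were not called by edgeR in any of the 6 comparisons. DESeq2 and the fit without TMM called Col24a1 higher in B1/P/Rbf tumors against gland (adjusted p down to 0.0202). Col24a1 read 0.390 to 31.5 CPM in B1/P/Rbf, 0.731 to 7.49 in B1/P and 1.40 to 11.1 in P/Rbf tumors. Col27a1 read 3.02 to 18.1, 5.80 to 38.7 and 3.85 to 17.8 CPM in the same order. The groups overlapped for both.

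The balance of type III to type I chains was read as a ratio of levels within each sample. Per kilobase, the ratio of Col3a1 to Col1a1 was 1.32, 1.18, 1.05, 1.16 and 1.20 in B1/P/Rbf tumors. It was 1.49, 1.59, 1.35, 1.22 and 1.30 in B1/P tumors and 0.651, 0.819, 0.724, 0.711 and 0.692 in P/Rbf tumors. All P/Rbf ratios lay below those of all the other tumors, and B1/P/Rbf and B1/P ratios overlapped. Those other tumors include B1/P tumors 4 and 5, which the uncertain split places in the same library set as P/Rbf. In the 3 glands the ratio was 3.84 to 5.01, above every tumor. The ratio of Col1a1 to Col1a2, whose products join in 1 trimer, was 0.810 to 1.02 in the tumors and 0.592 to 0.665 in the glands. These ratios were described after their values were seen and carry no test.

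**Figure D4:**
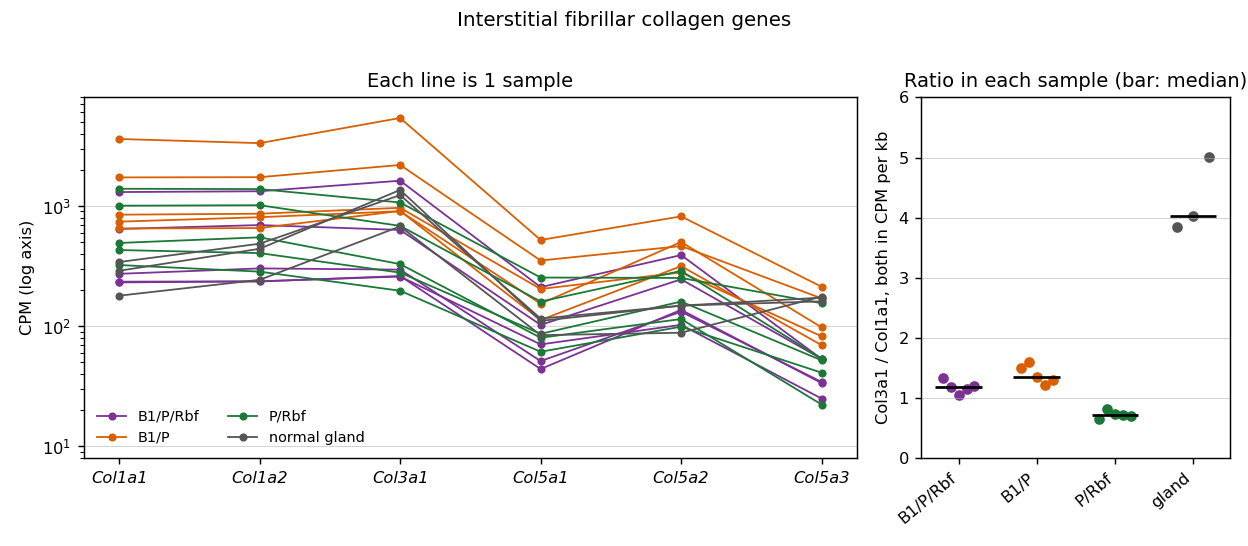
Levels of 6 fibrillar genes in each sample, in CPM on a log axis, with the per-kilobase ratio of Col3a1 to Col1a1 beside them. The ratio is 0.651 to 0.819 in P/Rbf tumors, 1.05 to 1.59 in the other tumors and 3.84 to 5.01 in glands.

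Type IV collagen is the network of basement membranes, and its 6 genes lie in 3 head-to-head pairs. The starts of Col4a1 and Col4a2 and of Col4a4 and Col4a3 are so close that 1 promoter window serves each pair, and both windows are shown because the genes of a pair were called in the same direction here. Each is from the RefSeq promoter table on GRCm38.p6, runs from 250 bases before to 50 bases after the start of the minus-strand gene, and is given on that strand. In the Col4a1 window (chr8:11312777-11313076) the capitals mark the 22 bases where the models of the 2 genes overlap. In the Col4a4 window (chr1:82586800-82587099) they mark the 71 bases between the 2 starts.
Col4a1: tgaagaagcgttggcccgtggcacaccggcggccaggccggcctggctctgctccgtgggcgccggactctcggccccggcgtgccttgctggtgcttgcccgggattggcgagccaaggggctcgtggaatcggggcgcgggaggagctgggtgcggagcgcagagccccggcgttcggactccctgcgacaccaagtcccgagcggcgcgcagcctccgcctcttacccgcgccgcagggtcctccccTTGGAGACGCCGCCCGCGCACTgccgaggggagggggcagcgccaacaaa
Col4a4: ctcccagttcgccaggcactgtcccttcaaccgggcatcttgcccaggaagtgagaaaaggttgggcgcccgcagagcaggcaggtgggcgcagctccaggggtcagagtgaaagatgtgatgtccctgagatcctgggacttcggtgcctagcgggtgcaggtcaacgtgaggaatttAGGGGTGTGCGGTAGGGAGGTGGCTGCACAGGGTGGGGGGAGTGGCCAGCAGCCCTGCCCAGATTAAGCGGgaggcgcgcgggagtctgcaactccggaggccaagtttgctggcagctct

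The starts of the third pair, Col4a6 and Col4a5, were 1308 bases apart on chromosome X. The letters CCAAT were found, on either strand, in the Col4a1 window and not in the Col4a4 window, and TATAAA in neither. CCAAT was in 37.4% of the 32851 promoters of the table and in 13 of the 38 collagen promoters matched to 35 of the 44 members. TATAAA was in 13.6% and in 5 of 38, and GGGCGG, the letters of a GC box, in 35.7% and in 23 of 38, of which 6 of 8 fibrillar and 6 of 8 network promoters held it. Motifs were searched on both strands, and none of the 3 strings of letters holds another.

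Col4a1 and Col4a2, the chains of the common basement membrane trimer, fell together. Col4a1 read 1514, 1005, 1690, 1588 and 1523 CPM in B1/P tumors. It read 801, 363, 366, 347 and 353 CPM in B1/P/Rbf tumors and 240, 412, 249, 500 and 245 CPM in P/Rbf tumors. The B1/P tumors did not overlap with the others, and B1/P/Rbf tumor 1 was the highest of the rest. The change was -1.71 ± 0.29 in B1/P/Rbf (edgeR adjusted p = 0.00119) and -2.15 ± 0.29 in P/Rbf tumors (edgeR adjusted p = 0.000313). For Col4a2 it was -1.59 ± 0.30 (edgeR adjusted p = 0.00232) and -2.07 ± 0.30 (edgeR adjusted p = 0.000552). Their per-kilobase ratio, Col4a1 to Col4a2, stayed between 1.42 and 2.00 in all 18 samples.

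Endothelial markers (7 genes) summed to 157 to 400 CPM in B1/P, 179 to 450 in B1/P/Rbf and 105 to 524 in P/Rbf tumors, and 0 of the 7 were called in either group against B1/P by edgeR, where 0 also had an unadjusted p under 0.05. Pericyte and smooth muscle markers (7 genes) summed to 376 to 742, 169 to 507 and 171 to 361 CPM. Of the 7, 3 fell in B1/P/Rbf and 5 in P/Rbf tumors (median log2 fold changes -1.04 and -1.45), beside 9.29% and 10.8% of all genes tested. The part of these cells in the type IV result was not tested.

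Col4a3 and Col4a4, chains of the network of kidney and lung, went the other way at low levels. Col4a4 read 13.8, 15.2, 1.74, 2.33 and 2.99 CPM in B1/P/Rbf tumors. It read 0.223, 0.326, 0.452, 0.621 and 0.347 CPM in B1/P tumors and 0, 0.126, 1.04, 0.0526 and 0.136 CPM in P/Rbf tumors. All B1/P/Rbf tumors were above all other tumors. Col4a4 rose by 4.18 ± 0.96 on the log2 scale against B1/P (edgeR adjusted p = 0.00776), and the value against P/Rbf was 4.70 ± 0.99 (edgeR adjusted p = 0.0501). With 1 sample left out, the value against P/Rbf ranged from 4.24 to 6.48.

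Col4a3 read 3.57, 8.77, 0.386, 0.0761 and 0.682 CPM in B1/P/Rbf tumors and 0 to 0.237 CPM in B1/P and 0 to 0.101 CPM in P/Rbf tumors. Tumors 1 and 2 carried most of it, as they did for Col4a4, and tumor 4 lay within the B1/P range. The rise was 4.21 ± 1.08 against B1/P (edgeR adjusted p = 0.0138), which limma-voom and a term for the library sets did not call. Without B1/P/Rbf tumor 2 the Col4a3 rise was 3.02 against B1/P and 4.61 against P/Rbf. Against P/Rbf with all samples it was 5.80 ± 1.19 (edgeR adjusted p = 0.0491), and this call was lost without any 1 of B1/P/Rbf tumors 1, 2 and 5 or of the 5 P/Rbf tumors.

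Col4a5 and Col4a6, chains of basement membranes under epithelium and around smooth muscle, were not read alike. Col4a6 read 156, 183, 128, 47.3 and 91.6 CPM in B1/P tumors. It read 88.3, 0.755, 3.86, 59.2 and 4.87 CPM in B1/P/Rbf tumors and 0.403, 3.22, 0.709, 1.26 and 0.136 CPM in P/Rbf tumors. Every P/Rbf tumor was below every B1/P tumor, and B1/P/Rbf tumors 1 and 4 reached into the B1/P range. Col4a6 fell by 6.72 ± 1.18 on the log2 scale in P/Rbf against B1/P tumors (edgeR adjusted p = 0.00160), or -7.57 without P/Rbf tumor 2. Limma-voom also called it lower in B1/P/Rbf tumors (adjusted p = 0.00951), which edgeR did not.

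Col4a5 read 207, 220, 137, 85.3 and 164 CPM in B1/P, 92.4, 40.5, 108, 159 and 12.4 CPM in B1/P/Rbf and 163, 4.70, 73.1, 7.29 and 83.7 CPM in P/Rbf tumors. The groups overlapped, and it was not called by edgeR between tumor groups. The per-kilobase ratio of Col4a6 to Col4a5 was 0.545 to 0.919 in B1/P tumors and 0.670 to 0.872 in glands. In P/Rbf tumors it was 0.00244, 0.673, 0.00953, 0.170 and 0.00160, so 3 tumors with Col4a5 at 73.1 to 163 CPM had almost no Col4a6. It was 0.939, 0.0184, 0.0353, 0.365 and 0.386 in B1/P/Rbf tumors.

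**Figure D5:**
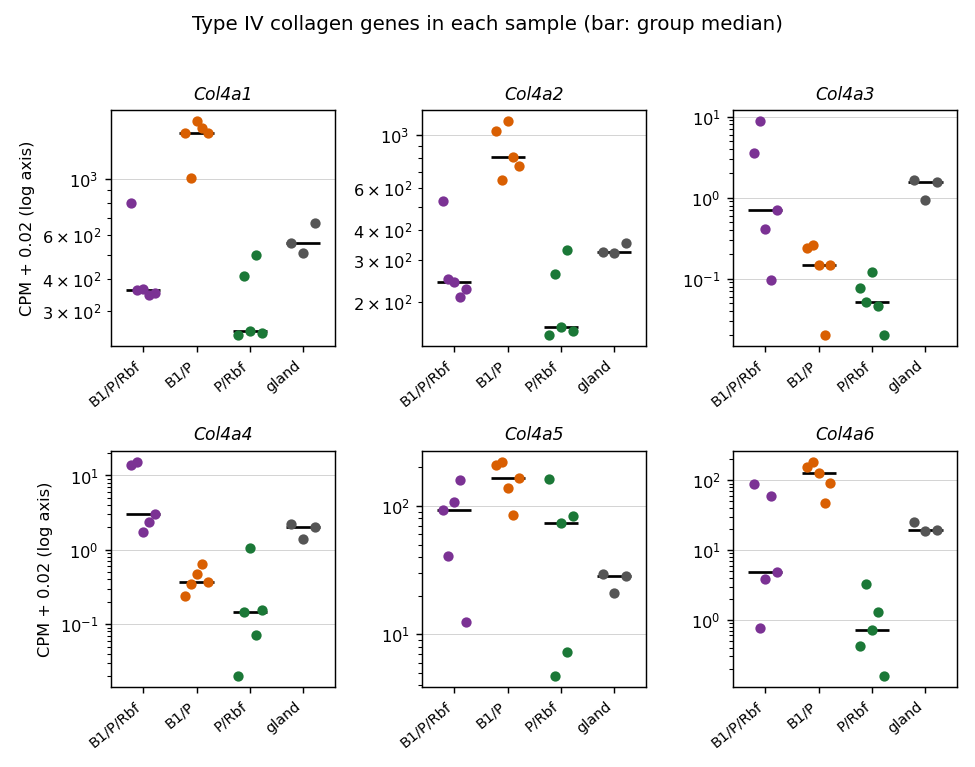
Level of the 6 type IV collagen genes in each sample, in CPM plus 0.02 on log axes, with the bar at the group median. For Col4a1 and Col4a2 the 5 B1/P tumors lie above all other samples, for Col4a4 the 5 B1/P/Rbf tumors lie above all other tumors, and for Col4a6 the 5 P/Rbf tumors lie below all B1/P tumors and glands.

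The remaining network genes encode type VIII, a collagen of vessel walls and of Descemet's membrane in the eye. Col8a1 read 64.6 to 172 CPM in B1/P, 29.9 to 184 in B1/P/Rbf and 37.2 to 91.4 in P/Rbf tumors, and Col8a2 read 22.5 to 176, 7.47 to 117 and 3.81 to 59.0 CPM. The groups overlapped, and neither gene was called between tumor groups by edgeR with all samples. Against B1/P tumors, Col8a1 went from -0.62 to -1.27 in B1/P/Rbf without tumor 1 (edgeR adjusted p = 0.0214), and Col8a2 from -1.71 to -2.64 in P/Rbf without tumor 2 (edgeR adjusted p = 0.0494), and both were then called lower.

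The FACIT genes other than type IX were called by edgeR in 0 of 5 cases in B1/P/Rbf tumors, although 3 of the 5 had an unadjusted p under 0.05 and all 5 estimates were negative (median -1.75). Col14a1 was called lower by DESeq2, limma-voom and with the set term (adjusted p down to 0.0187), and Col20a1 by DESeq2 and with the set term (down to 0.0222). Col12a1, a stromal fibril linker, read 139, 751, 323, 265 and 157 CPM in B1/P, 304, 33.6, 143, 48.0 and 66.4 CPM in B1/P/Rbf and 87.7, 458, 374, 150 and 102 CPM in P/Rbf tumors. It overlapped between all 3 tumor groups. In P/Rbf tumors 3 of these FACIT genes fell, Col14a1, Col16a1 and Col20a1.

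Col14a1, which binds mature fibrils, read 149, 143, 124, 102 and 19.1 CPM in B1/P tumors. In B1/P/Rbf tumors it read 92.2, 25.2, 17.4, 13.7 and 11.1 CPM and in P/Rbf tumors 5.06, 18.4, 13.9, 7.34 and 7.25 CPM. B1/P tumor 5 was close to the other groups, with P/Rbf tumor 2 only just below it. The change was -3.37 ± 0.65 in P/Rbf (edgeR adjusted p = 0.00265) and -1.75 ± 0.61 in B1/P/Rbf tumors (edgeR adjusted p = 0.0568).

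Col16a1, a fibril-associated chain, read 295, 171, 177, 204 and 704 CPM in B1/P tumors. It read 233, 287, 156, 126 and 150 CPM in B1/P/Rbf tumors and 90.5, 95.4, 124, 35.7 and 90.7 CPM in P/Rbf tumors. The P/Rbf tumors were the lowest and did not overlap with either of the other tumor groups. The change against B1/P was -1.83 ± 0.41 (edgeR adjusted p = 0.00589). Against P/Rbf the B1/P/Rbf level was 1.12 higher on the log2 scale, which was not called (edgeR adjusted p = 0.174). Col20a1 read 3.19 to 23.0 CPM except in B1/P tumor 5 at 0.757 CPM, against 0.684 to 3.85 CPM in P/Rbf tumors (-2.41 ± 0.72, edgeR adjusted p = 0.0277), or -1.46 without B1/P tumor 1 and -3.16 without P/Rbf tumor 3. That call was lost without any 1 of B1/P tumor 1 and P/Rbf tumors 1, 2, 4 and 5 (edgeR adjusted p up to 0.116). Col22a1, a FACIT chain of tissue junctions, read at most 1.18 CPM in every tumor and was not called by edgeR between tumor groups with all samples. Its change in P/Rbf against B1/P tumors was -1.17 (edgeR adjusted p = 0.545), and -4.81 without P/Rbf tumor 1, where it was called lower (edgeR adjusted p = 0.0256).

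In the other classes, 9 of 15 genes fell in B1/P/Rbf and 9 of 15 in P/Rbf tumors against B1/P, beside 9.29% and 10.8% of all genes tested. The 3 main type VI genes, whose chains form beaded microfibrils around cells, fell in both. Col6a1 read 206, 457, 457, 224 and 410 CPM in B1/P and 151, 52.1, 121, 99.5 and 120 CPM in B1/P/Rbf tumors, without overlap (-1.69 ± 0.45, edgeR adjusted p = 0.0172). Col6a2 changed by -1.74 ± 0.41 (edgeR adjusted p = 0.00945) and Col6a3 by -1.04 ± 0.31 (edgeR adjusted p = 0.0274). The Col6a3 call was lost without any 1 of B1/P/Rbf tumors 2, 4 and 5 and B1/P tumors 2 and 3 (edgeR adjusted p up to 0.0708). In P/Rbf tumors the 3 changes were -1.56 ± 0.45, -1.70 ± 0.41 and -1.31 ± 0.31 (edgeR adjusted p = 0.0232, 0.00990 and 0.00803), and the Col6a1 call was lost without any 1 of P/Rbf tumors 1, 4 and 5 (up to 0.0561).

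The rarer type VI chains were low throughout. Col6a6 read 3.56, 0.444, 0.302, 2.37 and 0.0631 CPM in B1/P tumors and 0 in all 5 P/Rbf tumors, and taking the floor of 3 counts per sample it was at least 15.4-fold lower there. It changed by -4.28 ± 1.04 in B1/P/Rbf tumors (edgeR adjusted p = 0.0148), or by -3.52 without B1/P tumor 1. Col6a4 read 2.40 to 26.5 CPM in B1/P, 0.254 to 3.96 in B1/P/Rbf and 0.132 to 0.681 in P/Rbf tumors. It changed by -2.32 ± 0.77 (edgeR adjusted p = 0.0482) and -4.30 ± 0.85 (edgeR adjusted p = 0.00316), and the first call was lost without any 1 of B1/P/Rbf tumors 1 to 4 or B1/P tumor 3 (edgeR adjusted p up to 0.288). That call was also lost without TMM, with no filter and in the fit of only the 2 groups, and DESeq2 gave no call for either change. Without B1/P tumor 3 the Col6a4 changes were -1.01 and -2.99, and without B1/P/Rbf tumor 5 the first was -3.0. Col28a1, a related beaded filament gene, fell by 2.15 ± 0.72 in P/Rbf tumors (edgeR adjusted p = 0.0457), a call lost without any 1 of 8 tumors (edgeR adjusted p up to 0.0953).

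Of the multiplexins, basement membrane collagens that carry sugar chains, Col18a1 read 333, 600, 1026, 382 and 731 CPM in B1/P tumors. It read 211, 89.5, 64.8, 115 and 83.1 CPM in B1/P/Rbf and 105, 294, 173, 195 and 65.1 CPM in P/Rbf tumors. No tumor of the latter groups reached the lowest B1/P tumor. Col18a1 changed by -2.45 ± 0.43 in B1/P/Rbf (edgeR adjusted p = 0.00156) and by -1.89 ± 0.42 in P/Rbf tumors (edgeR adjusted p = 0.00607). Col15a1 was called in P/Rbf (-1.22 ± 0.26, edgeR adjusted p = 0.00496) and not in B1/P/Rbf tumors, and the direct comparison of these 2 groups was not called.

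Among the transmembrane collagens, Col17a1, a component of the hemidesmosomes of basal epithelial cells, read 469, 0.829, 656, 409 and 438 CPM in B1/P tumors. It read 2.81, 0.0540, 9.82, 28.8 and 5.81 CPM in B1/P/Rbf and 1.81, 20.2, 60.4, 9.21 and 6.57 CPM in P/Rbf tumors. B1/P tumor 2, at 0.829 CPM, was below every other tumor but B1/P/Rbf tumor 2. It also had the lowest basal and myoepithelial marker sum of its group, 337 CPM. Of that sum, Acta2 gave 197 CPM and Krt5 gave 0, while Krt5 read 334 to 854 CPM in the other B1/P tumors. The Col17a1 change was -5.38 ± 1.38 (edgeR adjusted p = 0.0144) and -4.33 ± 1.32 (edgeR adjusted p = 0.0297), of which limma-voom called neither. Without B1/P/Rbf tumor 4 the first Col17a1 change was -6.41, and without P/Rbf tumor 3 the second was -5.38. The P/Rbf call was also lost without any 1 of B1/P tumor 3 and P/Rbf tumors 1, 2, 4 and 5 (edgeR adjusted p up to 0.0667).

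Col23a1 changed by -3.40 ± 0.89 (edgeR adjusted p = 0.0155) and Col25a1, a collagen of neurons, by -4.42 ± 1.24 (edgeR adjusted p = 0.0223) in B1/P/Rbf tumors. The Col25a1 call was lost without B1/P/Rbf tumor 2 or B1/P tumor 4 (edgeR adjusted p up to 0.0537). Col23a1 ranged from -4.12 without B1/P/Rbf tumor 1 to -2.70 without B1/P tumor 1, and Col25a1 from -5.25 without B1/P/Rbf tumor 5 to -3.72 without B1/P tumor 4. Col7a1, the anchoring fibril of skin and other stratified epithelium, read 234, 1539, 614, 99.7 and 347 CPM in P/Rbf tumors and 127 to 370 CPM in B1/P tumors. The groups overlapped, and tumor 2 stood highest. Col13a1, Col6a5 and Col26a1 were not called by edgeR in any of the 6 comparisons. Other settings called Col13a1 higher in P/Rbf against gland (DESeq2, limma-voom and no TMM, adjusted p down to 0.0109) and in B1/P/Rbf against gland (limma-voom and the fit of only the 2 groups, down to 0.0229), and Col6a5 lower in P/Rbf against gland (only the 2 groups, 0.0198).

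Within the library sets, the 18 genes called lower in B1/P/Rbf tumors had a lower mean than in B1/P tumors 1 to 3, and the 22 called lower in P/Rbf tumors a lower mean than in B1/P tumors 4 and 5. The genes were called on these same samples, so this describes them and is no support for their direction. With a term for the sets, 16 of the 18 and 13 of the 22 were still called by edgeR. The calls lost were Col5a2 and Col25a1 in B1/P/Rbf tumors and Col3a1, Col5a2, Col6a1, Col6a2, Col6a3, Col15a1, Col17a1, Col20a1 and Col28a1 in P/Rbf tumors. B1/P/Rbf tumors share no set with P/Rbf tumors or glands, so those comparisons have no values within a set, and the set term rests there on the B1/P tumors, which lie in both sets. With it, 0 collagen genes were called higher in B1/P/Rbf against P/Rbf tumors by edgeR.

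The third comparison, B1/P/Rbf against P/Rbf, asks what differs with Brca1 when T121 is present. Col4a3 was the single collagen gene called higher by edgeR with all samples (0.219% of all genes were), a call that limma-voom and the set term did not make. Col4a4, not called by edgeR (adjusted p = 0.0501), was called higher by DESeq2, limma-voom and without TMM, and by edgeR without B1/P/Rbf tumor 3 or 4 or P/Rbf tumor 3 (adjusted p down to 0.0163). In the other direction, 0 of 43 were called lower by edgeR (0.0625% of all genes were), with 1 lower at an unadjusted p under 0.05 (Col7a1) and 0 by DESeq2 and limma-voom. Col4a4 and Col16a1 were the 2 genes in which all B1/P/Rbf tumors were above all P/Rbf tumors, which held for 1.71% of all genes. DESeq2 called 4 higher, and 10 were higher in edgeR at an unadjusted p under 0.05. Among these, Col4a6 was 4.77 ± 1.08 higher on the log2 scale (edgeR adjusted p = 0.0678) and was called by DESeq2.

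Against normal gland the 3 tumor groups differed in how many collagen genes were called, and the 3 comparisons share their gland samples. In B1/P tumors 23 of 43 rose and 1 fell (all genes: 16.8% and 16.9%). In B1/P/Rbf tumors 5 rose and 4 fell (17.1% and 20.0%), and in P/Rbf tumors 6 rose and 10 fell (17.4% and 20.3%). The glands' muscle and adipocyte RNA, given above, cannot be told apart from genotype in these comparisons. Of the 23 calls, 8 were lost without at least 1 sample: Col1a1 (without gland 2 or 3), Col1a2 (without any gland or B1/P tumor 2 or 3), Col4a5, Col6a1, Col8a1, Col9a2, Col14a1 and Col17a1. The term for library sets kept 17 of the 23.

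By class, B1/P tumors had 5 of 11 fibrillar genes higher than gland (median log2 fold change 1.38), 6 of 9 network genes (1.83), 6 of 8 FACIT genes (3.14) and 6 of 7 cartilage genes (7.11, or 6.09 with Col10a1 at its bound), where the median over all genes was 0.12. In the same tumors Col2a1 rose by 9.40 ± 1.71 (edgeR adjusted p = 0.000500), Col9a1 by 7.30 ± 1.43 (0.000937) and Col12a1 by 4.85 ± 0.91 (0.000638). With 1 sample left out, these rises were as low as 7.85, 5.50 and 4.29. Col2a1 was 0.0327 to 0.237 CPM in glands, a level that the other 2 tumor groups overlapped.

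Col12a1, Col16a1, Col7a1, Col10a1 and Col8a2 rose in B1/P/Rbf tumors against gland, and the Col7a1 call was lost without gland 2 or 3. With the term for library sets, the calls of Col12a1 (edgeR adjusted p = 0.143), Col7a1 (0.190) and Col8a2 (0.138) were lost, as were the lower calls of Col9a2 (0.214) and Col22a1 (0.360). Col12a1 was 8.90 to 14.3 CPM in glands and 33.6 to 751 CPM over all 15 tumors, so no tumor overlapped with gland. It rose by 3.39 ± 0.84 in B1/P/Rbf (edgeR adjusted p = 0.00453) and by 4.37 ± 0.89 in P/Rbf tumors (edgeR adjusted p = 0.000983). With 1 sample left out, the Col12a1 rise in B1/P/Rbf tumors was as low as 2.68. The genes that fell in B1/P/Rbf tumors were Col5a3, Col6a6, Col9a2 and Col22a1, the last a call lost without any 1 of the 3 glands or B1/P/Rbf tumors 1 to 3. Col5a3 read 161 to 176 CPM in glands and changed by -2.09 ± 0.48 (edgeR adjusted p = 0.00273). Genes that fell in P/Rbf tumors included the type IV genes Col4a3, Col4a4 (a call lost without any 1 gland or any 1 of P/Rbf tumors 1, 2, 4 and 5, without TMM and in the fit of only the 2 groups) and Col4a6 and the type IX genes Col9a1 (-4.66 ± 1.29, edgeR adjusted p = 0.00929) and Col9a2 (-3.56 ± 0.79, edgeR adjusted p = 0.00194), both not called by limma-voom (adjusted p = 0.249 and 0.0617).

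Other genes of the collagen pathway were counted by list. Of 19 genes for chain modification and folding, 4 fell and 0 rose in B1/P/Rbf against B1/P tumors by edgeR, with 0 higher at an unadjusted p under 0.05, where 9.29% of all genes tested fell and 7.36% rose. Serpinh1, the collagen-specific chaperone, was 64.9 to 192 CPM in B1/P/Rbf and 335 to 630 CPM in B1/P tumors, without overlap (-2.17 ± 0.31, edgeR adjusted p = 0.000476). The prolyl 3-hydroxylases P3h2 (-3.61 ± 0.84, edgeR adjusted p = 0.00798) and P3h3 (-1.60 ± 0.36, 0.00632) and the prolyl isomerase Fkbp14 (-1.54 ± 0.30, 0.00266) also fell. P4hb, a subunit of prolyl 4-hydroxylase, read 720 to 1204 CPM in B1/P/Rbf and 723 to 1200 CPM in B1/P tumors.

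Of 13 genes for cleavage and cross-linking, 1 fell, the lysyl oxidase family gene Loxl3 (-1.62 ± 0.34, edgeR adjusted p = 0.00446). Of 8 small proteoglycans tested, 1 fell, Prelp (-3.83 ± 1.19, edgeR adjusted p = 0.0363), a call lost without any 1 of B1/P tumors 1, 3 and 5 or B1/P/Rbf tumors 2 to 5 (edgeR adjusted p up to 0.0823). The Prelp change was -4.97 without B1/P/Rbf tumor 1 and -3.34 without B1/P tumor 3. Of 9 collagen receptors tested, 3 fell, namely Ddr1 (-1.65 ± 0.30, edgeR adjusted p = 0.00198), Ddr2 (-2.28 ± 0.32, 0.000429) and Itga1 (-1.11 ± 0.31, 0.0205). The 1 of 13 and 1 of 8 are close to the 9.29% of all genes that fell. At an unadjusted p under 0.05 in edgeR, however, 7 of the 13 and 3 of the 8 were lower. Of their estimates, 12 and 6 were negative, with medians of -1.415 and -0.947. The Itga1 call was lost without B1/P tumor 3 or B1/P/Rbf tumor 2 or 3 (edgeR adjusted p up to 0.0566). Ddr2 read 6.88 to 25.0 CPM in B1/P/Rbf and 53.3 to 78.2 CPM in B1/P tumors, and no tumors overlapped. In P/Rbf tumors 6 of 19, 2 of 13, 0 of 8 (2 at an unadjusted p under 0.05) and 2 of 9 genes of the same lists fell by edgeR, where 10.8% of all genes fell. The procollagen protease gene Tll1 was called higher (3.58 ± 1.21, edgeR adjusted p = 0.0468), with 80.4 CPM in P/Rbf tumor 1, 0.506 to 2.03 CPM in the other 4 and 0.631 to 2.94 CPM in B1/P tumors. Without P/Rbf tumor 1 its change was -0.08 (edgeR adjusted p = 0.952), and the call was also lost without any 1 B1/P tumor (edgeR adjusted p up to 0.0906).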

How the data were processed

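The authors made stranded mRNA libraries, pooled them and sequenced them in read pairs. Per the labels, the submitters' processing notes name FastQC 0.11.5, Picard 1.119, cutadapt 1.18, RSEM 1.3.0 and DESeq2 1.28.1. The deposited values are RSEM expected counts, not normalized, and 5.61% of them (0.63% for collagens) are not whole because RSEM divides reads between matching genes. The methods name a human reference, but all 55450 identifiers match GENCODE M21 on GRCm38.

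After rounding, edgeR 4.0.16 in R 4.3.3 was used (filterByExpr with a minimum count of 10 and TMM, then 1 quasi-likelihood fit of 18 samples in 4 groups, giving 6 comparisons, with a prior count of 2). The Benjamini-Hochberg adjustment ran over 19186 genes, with calls at 0.05 or less. CPM values are TMM-scaled, and per-kilobase levels divide them by the length of the transcript with the longest coding sequence. A group with at most 3 counts in every sample was at the floor. Alternatives were DESeq2 1.42.0, limma-voom (limma 3.58.1) with quantile normalization, no TMM, no filter, the authors' filter (log2 CPM no lower than 6 for 6 or more samples), only the 2 groups compared, a term for 2 library sets, and leaving out each sample. The fit was tested on simulated data, and no result given here rests on that test. Replicates are separate mice.

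Every fibrillar, network, FACIT and cartilage gene is named, other collagen genes where called, and pathway genes where called in B1/P/Rbf against B1/P, up to 4 per list. Tll1, P4hb, Matn1, Snorc, Acan, Krt5 and Acta2 were named after their values were seen. The members, classes and lists were chosen with earlier results of these data known. Python 3.11.15, numpy 2.4.6, pandas 2.3.3 and matplotlib 3.10.9 were used for tables and figures.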

Additional observations from a re-analysis of the deposited data

Results flagged for a closer look

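In 84 groups of 5 tumors, 8 held a tumor set apart from the rest by a gap that was large against the range of its group, both taken on log2 CPM with a prior count of 2, where chance sets apart about 1 in 20 groups. Col4a1 in B1/P/Rbf tumor 1 was at 801 CPM against 347 to 366 in the other 4 (gap 0.937 of the log2 range), and Col4a2 in the same tumor was at 527 against 210 to 249 CPM (0.812). In B1/P tumor 2, Col4a1 was at 1005 against 1514 to 1690 CPM (0.788). Col14a1 was at 19.1 CPM in B1/P tumor 5 against 102 to 149 (0.814), and Col9a2 at 7.04 CPM in B1/P tumor 3 against 39.3 to 68.8 (0.754). In P/Rbf tumors, Col16a1 was at 35.7 CPM in tumor 4 against 90.5 to 124 (0.745), Col20a1 at 3.85 CPM in tumor 3 against 0.684 to 1.14 (0.714), and Col22a1 at 1.12 CPM in tumor 1 against 0 to 0.0340 (0.848).

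The difference from gland was called in opposite directions for 2 genes, and the difference between the tumor groups was itself called by edgeR. Col9a1 was above gland in B1/P and below it in P/Rbf tumors, with -11.96 between them on the log2 scale. Col9a2 was above gland in B1/P and below it in both other groups, with -5.88 for B1/P/Rbf and -6.72 for P/Rbf against B1/P tumors. Against gland, limma-voom called neither gene lower in P/Rbf tumors, nor Col9a2 in B1/P/Rbf tumors, where the set term did not call it either (adjusted p up to 0.214), and edgeR did not call Col9a2 higher in B1/P tumors without gland 3 (adjusted p = 0.0600).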

How the results depend on the processing

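No call in a collagen gene changed direction under any alternative, while the call of Tll1, a gene of the wider pathway, in P/Rbf against B1/P tumors had the opposite sign without P/Rbf tumor 1. Of 92 calls in single collagen genes over the 6 comparisons, DESeq2 kept all of the 89 it could give, limma-voom 77, no TMM 88, no filter 86, the stricter filter 36 of the 40 it tested, fits of only the 2 groups 80 of 88 and the term for 2 library sets 67. Without TMM the median of all genes moved by 0.37, 0.35 and 0.27 on the log2 scale against gland for B1/P/Rbf, for B1/P and for P/Rbf, and limma-voom moved it by 0.15 for both T121 groups. Depth limits genes near the floor of 3 counts, such as Col6a6 and Col4a3. The causes of the changes below were not tested, except that the stricter filter tests 18 collagen genes. Only 2 of these are FACIT genes, against 8 in the edgeR fit described above, so its FACIT medians cover fewer genes.

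For B1/P/Rbf against B1/P, higher calls numbered 1 with limma-voom, with only the 2 groups and with the set term, and 0 with the stricter filter, where lower calls numbered 9 and the FACIT median was -1.10. For P/Rbf against B1/P, lower calls numbered 10 with the stricter filter (FACIT median -1.27) and 13 with the set term (cartilage median -5.07). For B1/P/Rbf against P/Rbf, higher calls numbered 4 with DESeq2, 2 without TMM and 0 with the stricter filter, only the 2 groups or the set term, where the fibrillar and cartilage medians were -1.34 and 1.19.

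For B1/P/Rbf against gland, higher calls numbered 8 with DESeq2, 3 with the stricter filter and 2 with the set term, and lower calls 1 and 2 with the last 2. The fibrillar median was -0.10 with the stricter filter and -0.67 with the set term, the cartilage median -0.48 with the set term, and the FACIT median -0.42 with limma-voom, -0.64 without TMM, 2.62 with the stricter filter and -1.41 with the set term. For B1/P against gland, higher calls numbered 10 with the stricter filter, and lower calls 2 with DESeq2, no filter or only the 2 groups and 0 with the stricter filter or the set term. Without TMM and with the set term, the median of all collagens was 1.90 and 1.22 and that of fibrillar genes 1.73 and 0.79. For P/Rbf against gland, the stricter filter gave 2 higher and 4 lower calls. Its FACIT median was 2.44 over 2 genes, where the edgeR fit described above had -1.59 over 8. The FACIT part of the summed level was 4.78% in B1/P with cartilage types apart, and 7.29% in P/Rbf by CPM.

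Leaving out 1 sample gave these ranges: fibrillar median -2.00 to -0.96 for B1/P/Rbf against B1/P; FACIT median -3.98 to -2.54 for P/Rbf against B1/P; 0 to 2 higher calls for B1/P/Rbf against P/Rbf; cartilage median -0.40 to 0.35 for B1/P/Rbf against gland. For B1/P against gland, 15 to 22 higher and 0 to 1 lower calls, a fibrillar median of 0.99 to 1.57 and a cartilage median of 5.50 to 7.57 were found, and for P/Rbf against gland 3 to 8 higher and 6 to 10 lower calls. No paired analysis was possible because the labels share no replicate numbers between groups.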
